A study of Mus musculus with 23 samples.

Results

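Binding of p65 (RelA), the transactivating subunit of NF-κB, was examined around the CXC chemokine genes of mouse chromosome 5. The members were all peaks of 5 deposited ChIP-seq lists whose centre lies in either of 2 windows of build mm9, whatever their height. The windows were drawn around named genes, with earlier results of these data known. The window of Cxcl1, Cxcl2 and Cxcl3 runs over 280 kb from 91150000 to 91430000, and that of Cxcl9, Cxcl10 and Cxcl11 over 130 kb from 92710000 to 92840000. Of 58278 peaks in the 5 lists, 62 are members, 43 in the Cxcl1 to Cxcl3 window and 19 in the Cxcl9 to Cxcl11 window. Peaks that overlap across lists by 1 bp or more were joined, which gave 24 sites in the former and 12 in the latter.

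The p65 libraries came from thioglycollate-elicited peritoneal macrophages of male C57BL/6 mice aged 6 to 8 weeks, serum-starved overnight. All p65 groups carry floxed NCoR alleles. Knockout cells (NCoR fl/fl Lys M-Cre +/-) also carry the Cre transgene, whose promoter is active in myeloid cells, and wild type cells (NCoR fl/fl Lys M-Cre -/-) lack it. Each genotype was left untreated or given 100 ng/ml Kdo2-Lipid A (KLA), an agonist of the endotoxin receptor TLR4, for 1 h. The other list maps biotin-tagged LXRβ, an oxysterol receptor, in a stable line of the mouse macrophage line RAW264.7 exposed for 2 h to the synthetic LXR ligand GW3965 at 1 µM. RAW264.7 is labelled C57BL/6, although the line is generally described as of BALB/c origin. Each group was 1 library, so differences between groups could not be set against replicate spread and were not tested. Intervals are 95% intervals. Those of heights and height ratios cover the counting error of tags only. Those of shares and of peaks per 100 kb treat the peaks of 1 library as independent, which neighbouring peaks may not be. NCoR itself, macrophage markers and chemokine RNA were not measured by these lists.

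CXC chemokines are small secreted proteins that guide leukocytes. Cxcl1, Cxcl2 and Cxcl3 signal through Cxcr2 and draw neutrophils to sites of infection, and macrophages release them soon after they sense bacterial lipids. Cxcl9, Cxcl10 and Cxcl11 signal through Cxcr3 on activated T cells and natural killer cells and are classed as interferon-inducible. NF-κB is held in the cytoplasm by inhibitor proteins, enters the nucleus when TLR4 is engaged, and binds κB sites at genes of both groups. NCoR is a corepressor that recruits histone deacetylase activity to target genes.

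The stretches just upstream of the member genes are shown because κB sites lie close to the start of many NF-κB genes. They are the 250 bases before the gene start in RefSeq on build GRCm38.p6, whose positions cannot be set beside the mm9 positions of the peaks. A promoter was found for 5 of the 6 member genes, Cxcl11 being the other. They lie at chr5:90890995-90891244 (plus strand), chr5:90903649-90903898 (plus), chr5:90785851-90786100 (plus), chr5:92328080-92328329 (minus) and chr5:92348890-92349139 (minus). Capitals mark matches on either strand to a loose form of the κB motif, GGG and CC with any 5 bases between, and to the core of the interferon-stimulated response element, GAAA and GAAA with any 2 bases between. The latter has a single match, the leftmost capitals of Cxcl10.
Cxcl1: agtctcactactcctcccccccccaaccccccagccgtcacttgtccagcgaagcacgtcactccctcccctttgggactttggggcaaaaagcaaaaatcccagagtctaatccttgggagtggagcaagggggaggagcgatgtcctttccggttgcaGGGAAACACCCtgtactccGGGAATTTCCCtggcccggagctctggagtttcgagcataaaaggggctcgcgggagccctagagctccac
Cxcl2: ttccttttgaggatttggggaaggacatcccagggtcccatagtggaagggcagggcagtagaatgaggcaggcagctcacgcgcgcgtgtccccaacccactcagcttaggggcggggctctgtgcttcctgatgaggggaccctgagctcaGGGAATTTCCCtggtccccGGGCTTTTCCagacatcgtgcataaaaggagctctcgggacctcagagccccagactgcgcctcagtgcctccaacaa
Cxcl3: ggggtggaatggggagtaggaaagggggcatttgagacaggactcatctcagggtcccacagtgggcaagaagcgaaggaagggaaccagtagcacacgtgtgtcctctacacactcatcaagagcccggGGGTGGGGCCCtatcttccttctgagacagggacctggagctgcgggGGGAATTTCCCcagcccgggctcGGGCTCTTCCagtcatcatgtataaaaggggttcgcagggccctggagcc
Cxcl9: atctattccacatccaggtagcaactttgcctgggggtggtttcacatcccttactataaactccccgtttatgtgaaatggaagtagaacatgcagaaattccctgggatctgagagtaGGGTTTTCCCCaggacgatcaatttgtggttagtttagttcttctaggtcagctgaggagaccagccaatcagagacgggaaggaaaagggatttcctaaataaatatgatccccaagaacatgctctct
Cxcl10: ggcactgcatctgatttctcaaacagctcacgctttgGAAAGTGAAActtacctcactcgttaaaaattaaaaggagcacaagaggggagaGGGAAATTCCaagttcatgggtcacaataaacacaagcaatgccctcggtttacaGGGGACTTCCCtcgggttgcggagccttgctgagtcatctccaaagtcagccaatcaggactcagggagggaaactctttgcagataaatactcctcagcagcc

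The loose κB form was present in all 5 of these stretches, but also in 45.8% of 32817 promoters of the RefSeq table and in 5 of 11 promoters found among 15 other CXC ligands and receptors. The forms GGGAANNCC and GGAANNCCC fix more bases but are shorter, so they are no subset of the loose form. Neither matches GGGAATTTCC, which the loose form matched in Cxcl1, Cxcl2 and Cxcl3. Each shorter form was in 2 of the 5, Cxcl9 and Cxcl10, against 4.99% and 4.97% of all promoters. The matches in Cxcl10 overlap each other and the loose form, as do those in Cxcl9 except 1 further GGAANNCCC match at bases 42 to 34. The interferon-stimulated response element core was in 1 of the 5, Cxcl10, at bases 213 to 204 before the start, against 2.97% of all promoters. The longest run shared by Cxcl1, Cxcl2 and Cxcl3 was GGGAATTTCCC, at bases 71 to 61, 97 to 87 and 73 to 63 before the start. It holds the loose κB form. This run was chosen because the 3 share it, after the letters were seen. Over all promoters it was found, on either strand, in 14 (0.0427%), these 3 included, and in none of the 11 other CXC promoters. Cxcl1 and Cxcl2 share a longer run around it, GGGAATTTCCCTGG. Pf4, Ppbp and Cxcl15, which RefSeq places in the same group as Cxcl1 to Cxcl3, held none of these motifs. Pf4 and Ppbp encode platelet chemokines. In Cxcl10 the loose κB form matched GGGAAATTCC and GGGACTTCCC, and in Cxcl9 it matched GGGTTTTCCC. Cxcl9 and Cxcl10 share CAGCCAATCAG as their longest run, which is no κB form. The members of a cluster are paralogs, so their promoters are not independent, and a match describes letters and shows no binding.

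Along chromosome 5 RefSeq (GRCm38.p6) lists Cxcl5, Ppbp, Pf4, Cxcl3, Cxcl15, Cxcl1, Cxcl2, and then Cxcl9, Cxcl10 and Cxcl11, the last of which it classes as a transcribed pseudogene. No mm9 gene annotation was used, so peaks are named by position and not given to a gene or to an exon, intron or promoter. Cxcl15, which is no member gene, lies between Cxcl3 and Cxcl1, so a peak of that window need not belong to a member gene.

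After KLA both windows were dense in p65 peaks. Heights are the authors' normalized tag counts, in tags per 10000000 tags of the library. The Cxcl1 to Cxcl3 window held 20 wild type and 19 knockout KLA peaks, or 7.14 and 6.79 per 100 kb. The Cxcl9 to Cxcl11 window held 8 and 10, or 6.15 and 7.69 per 100 kb. The 1280 kb between the windows held 26 wild type and 14 knockout KLA peaks, or 2.03 and 1.09 per 100 kb, and the genome up to the last listed peak of each chromosome held 1.14 and 0.856. The lower Poisson bounds of the Cxcl1 to Cxcl3 densities, 4.36 in wild type and 4.09 in knockout cells, lie above the upper bounds of the stretch between, 2.98 and 1.84. For Cxcl9 to Cxcl11 the intervals were 2.66 to 12.1 and 3.69 to 14.1, and the wild type one overlaps that of the stretch between. The windows were drawn around named genes and the stretch between was not, and no test of the difference was made.

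**Figure D1:**
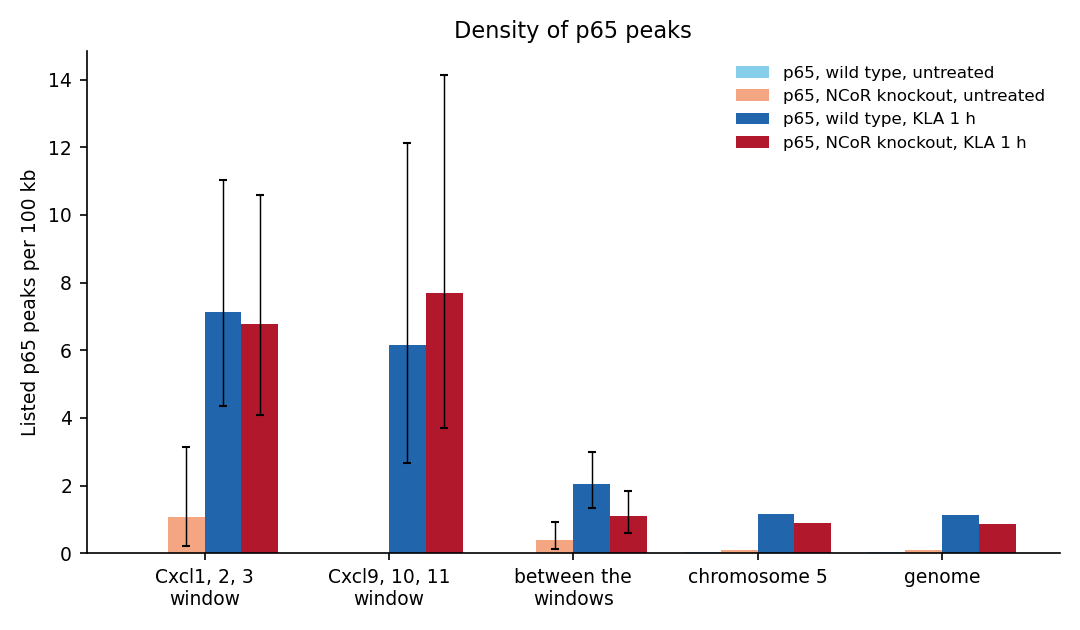
Listed p65 peaks per 100 kb (bars, vertical axis) in both chemokine windows, in the stretch between them, on chromosome 5 and in the genome, by library. Error bars are 95% Poisson intervals of the regional counts, drawn where at least 1 peak was listed. After KLA the windows hold 6.15 to 7.69 peaks per 100 kb, against 0.856 to 1.14 in the genome.

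Member peaks were taller than their lists, except in knockout cells at Cxcl9 to Cxcl11. The median height was 77.9 over the 28 wild type KLA members, against 42.4 over that whole list, and 71.7 over the 29 knockout KLA members, against 53.8. Heights ran from 23.6 to 382.0 in wild type and from 29.9 to 382.4 in knockout cells. A height of 100 or more was reached by 9 of 28 wild type members and by 8 of 29 knockout members. Over the whole lists 12.5% and 17.8% of peaks reached it. The knockout members of the Cxcl9 to Cxcl11 window had a median of 56.8 and 2 of 10 reached 100, near the values of the list. A height of 300 or more was reached by 2 members in each genotype, all in the Cxcl1 to Cxcl3 window, against 0.769% and 0.979% of the lists.

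Before KLA few peaks were listed, both in the windows and over the genome. Untreated wild type cells had 0 peaks in both windows, and their nearest peak on the chromosome lay 1202648 bp or more from every member. Untreated knockout cells had 3 peaks in the Cxcl1 to Cxcl3 window and 0 in the other. The whole untreated lists held 702 and 2227 peaks, or 0.0266 and 0.0844 per 100 kb of genome, so none would be typical of windows this short. The 3 knockout peaks are 1.07 per 100 kb (0.221 to 3.13), and the stretch between the windows held 5, or 0.391 per 100 kb (0.127 to 0.912). Both intervals lie above the 0.0844 of the genome, on 3 and 5 peaks, and no test of the difference was made. In the untreated libraries 1 tag is worth 12.9 (wild type) and 12.7 (knockout), and the lowest listed heights are 64.3 and 63.6. Of the KLA members, 16 of 28 in wild type and 17 of 29 in knockout cells stood at or above that lowest untreated height (26.7% and 38.0% of the whole lists). A lower site would not be listed in untreated cells even at its KLA height.

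The 3 untreated knockout peaks rested on 9, 7 and 6 tags and had 0.1 to 0.2 scaled input tags. From 91171242 to 91171368 the untreated knockout height was 114.5 (52.4 to 217), and the site was 65.7 (32.8 to 118) in knockout and 80.2 (46.7 to 128) in wild type cells after KLA. The knockout intervals before and after KLA overlap. From 91306084 to 91306210 the untreated knockout height was 89.0 (35.8 to 183), with no overlapping KLA peak. The nearest KLA peaks there, of 328.7 in knockout and 330.1 in wild type cells, were centred 838 and 852 bp away. From 91327863 to 91327989 the untreated knockout height was 76.3 (28.0 to 166). A wild type KLA peak of 80.2 overlapped it, and the nearest knockout KLA peak, of 89.6, was centred 150 bp away without overlap. Of these 3 peaks 2 overlapped a wild type KLA peak (46.8% of all untreated knockout peaks did), 1 a knockout KLA peak (41.4%) and 2 a KLA peak of either genotype (53.2%). Seen from the KLA lists, 0 of 28 wild type members overlapped an untreated wild type peak (1.77% of the list did), 2 overlapped an untreated knockout peak (3.47%), and 1 of 29 knockout members overlapped an untreated knockout peak (4.08%). These shares are near the background, and with 3 peaks of under 10 tags a difference between untreated genotypes was not detectable at this depth.

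**Figure D2:**
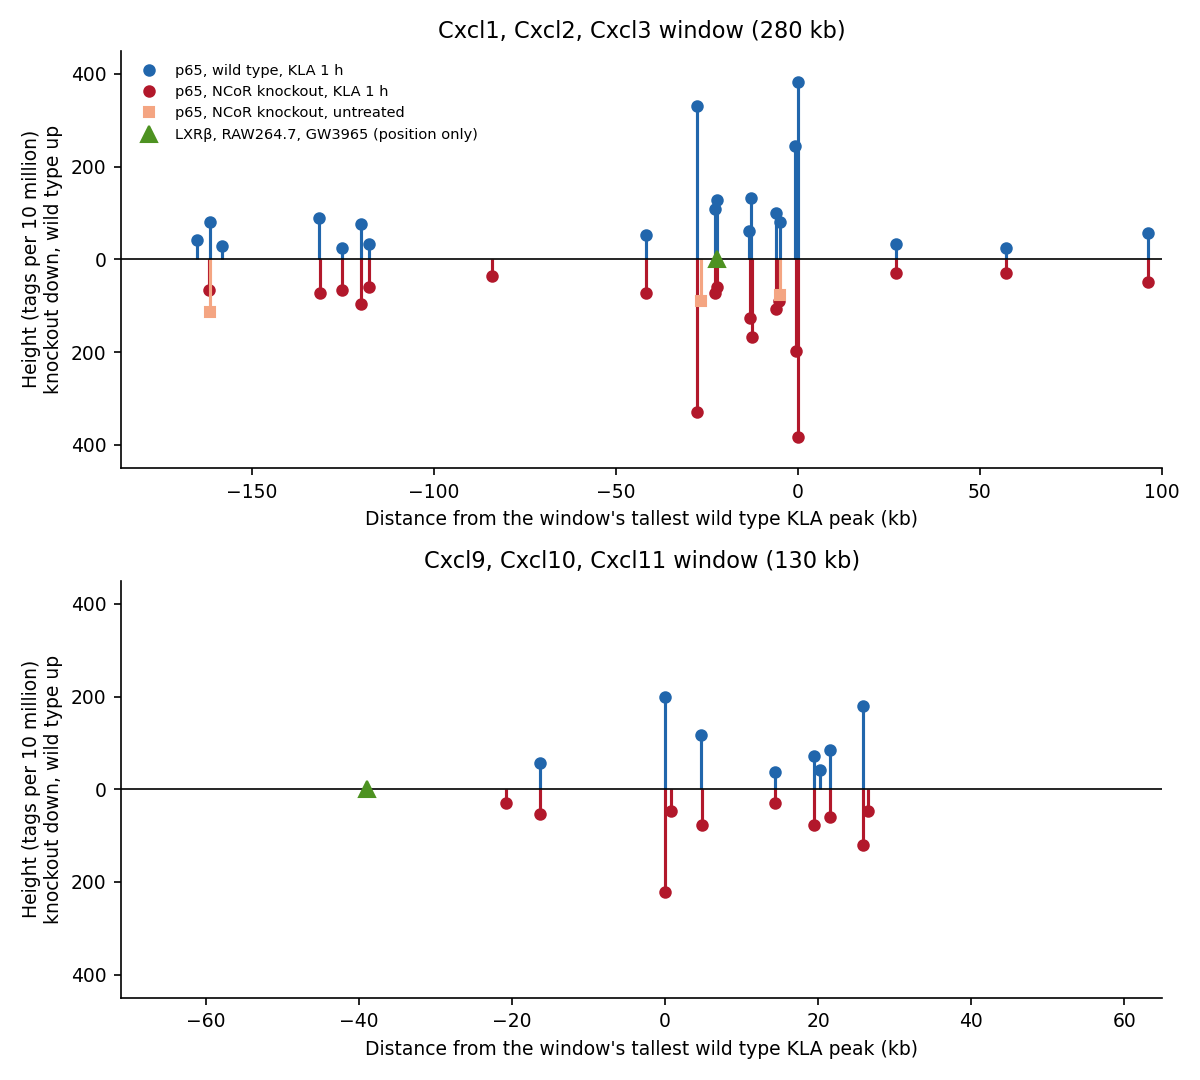
Height of each p65 peak (vertical axis, tags per 10000000) against its distance in kb from the tallest wild type KLA peak of the window. Wild type peaks point up and knockout peaks down, squares are untreated knockout peaks, and triangles give only the position of LXRβ peaks. The tallest peaks of the Cxcl1 to Cxcl3 window, 382.0 and 382.4 at the origin, mirror each other, and the 3 untreated peaks lie in that window.

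In the Cxcl1 to Cxcl3 window the wild type peaks of height 100 or more lay within 27.7 kb of its 280 kb. The stretch from 91305229 to 91332900, which runs from the first to the last of these peaks and was chosen after the heights were seen, held 9 of 20 wild type peaks, all the tall ones by construction. In knockout cells it held 9 of 19 peaks with a median of 125.5, against 62.8 for the others, of which the tallest was 95.6. Except for that from 91327704, these knockout peaks overlap the wild type peaks of the stretch. The knockout contrast is therefore not independent of the choice.

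The tallest site, from 91332768 to 91332900, had a wild type KLA height of 382.0 (303 to 475), which ranks 76 of 30021 in its list. Its knockout KLA height was 382.4 (295 to 488), rank 74 of 22585. The 2 heights differ by far less than the counting error. It was in no untreated list and in no LXRβ list. A companion peak lay 624 bp upstream by coordinate, from 91332144 to 91332276, with 245.2 (183 to 322) in wild type and 197.2 (136 to 277) in knockout cells. This companion too was listed only after KLA.

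The next tallest site lay from 91305229 to 91305361, at 330.1 (257 to 417) in wild type and 328.7 (248 to 428) in knockout cells, ranks 160 and 151. Here too the genotypes were level, and neither untreated list overlapped the site. From 91320070 to 91320202 the heights were 132.1 (87.7 to 191) in wild type and 167.3 (111 to 242) in knockout cells. It also had a close neighbour, from 91319461 to 91319593, with 61.3 (32.6 to 105) in wild type and 125.5 (77.7 to 192) in knockout cells. That neighbour was higher in knockout cells, with intervals that overlap.

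The site from 91310624 to 91310756 went the other way, with 127.3 (83.9 to 185) in wild type and 59.8 (28.7 to 110) in knockout cells. It is the only member site where p65 and LXRβ peaks overlapped. A p65 peak 507 bp from it, from 91310117 to 91310249, was 108.5 in wild type and 71.7 in knockout cells. The remaining wild type KLA peaks of the window ranged from 23.6 to 99.0.

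The tallest peaks of the Cxcl9 to Cxcl11 window were lower than those of the other window, while the wild type medians, 77.8 and 77.9, were level. Its tallest site, from 92777974 to 92778106, had 198.1 (143 to 268) in wild type and 221.1 (156 to 305) in knockout cells, ranks 858 and 586. A second tall site, from 92803871 to 92804003, had 179.2 (127 to 246) in wild type and 119.5 (73.0 to 185) in knockout cells. The site from 92782729 to 92782861 had 117.9 (76.3 to 174) and 77.7 (41.4 to 133). All 3 were listed only after KLA, in both genotypes, and their intervals overlap between genotypes.

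At the site from 92799542 to 92799674 the heights were 84.9 (50.3 to 134) in wild type and 59.8 (28.7 to 110) in knockout cells. At the site from 92797458 to 92797590 they were 70.7 (39.6 to 117) and 77.7 (41.4 to 133). The stretch from 92777974 to 92804003 (26.0 kb), drawn by the same rule, held 7 of 8 wild type and 7 of 10 knockout peaks, low ones included.

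Peaks in close pairs recurred in both windows. In wild type cells 8 of 28 members (Clopper-Pearson 13.2% to 48.7%) had another peak of the same list centred within 1000 bp, against 17.6% of the whole list. In knockout cells 10 of 29 did (17.9% to 54.3%), against 14.8%. The wild type interval includes the share of its list. The windows are also denser in peaks than the genome, and the shares were not compared with stretches of like density. In wild type cells these pairs were 507, 609 and 624 bp apart in the Cxcl1 to Cxcl3 window and 747 bp apart in the other. In knockout cells the corresponding distances were 586, 528 and 516 bp, and 781 and 601 bp for 2 pairs of the Cxcl9 to Cxcl11 window. Those 2 pairs hold the 2 tallest sites of that window, and their lower partners, from 92778752 and from 92804488, were listed in knockout cells alone. The authors' minimum distance between peaks was 264 bp in the wild type and 288 bp in the knockout KLA list, so closer binding would be listed as 1 peak.

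The genotype comparison asked whether p65 binding after KLA differed in these windows when NCoR was deleted. Of 28 wild type members 23 (82.1%, Clopper-Pearson 63.1 to 93.9) overlapped a knockout KLA peak, against 54.0% of the whole list. Of 29 knockout members 23 (79.3%, 60.3 to 92.0) overlapped a wild type peak, against 71.7%. Over the whole lists, peaks with 10 or more tags were found in the other list more often than all peaks were. Whether height accounts for the share among members was not tested. The limit of 10 tags was set on the listed peak and not on its partner. Among wild type peaks with 10 or more tags, 19 of 20 members and 81.3% of the list were found. Among knockout peaks with 10 or more tags, 19 of 20 members and 91.7% of the list were. With a reciprocal overlap of 50% of each peak, 16 of 28 wild type members (44.4% of the list) and 16 of 29 knockout members (59.0%) were found in the other list, so the knockout members then lay slightly below their list. The 23 sites shared by 1 bp or more divide into 16 in the Cxcl1 to Cxcl3 window and 7 in the Cxcl9 to Cxcl11 window.

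At the 16 shared sites of Cxcl1 to Cxcl3 the height in knockout over that in wild type cells had a median of 1.04, with single ratios from 0.470 to 2.78 and 9 of 16 above 1. At the 7 of Cxcl9 to Cxcl11 the median was 0.793, with ratios from 0.659 to 1.12 and 2 of 7 above 1. Over all 16203 shared sites the median was 1.09 and 57.8% were above 1. Listed peaks are wider in the knockout list (144 bp) than in the wild type one (132 bp), and after division by width the 3 medians were 0.957, 0.727 and 0.996. Whether the chemokine groups differ from each other or from other sites was not tested. The 6 shared member sites with 50 or more tags summed over both lists, a limit set after the ratios were seen, had ratios from 0.667 to 1.27 and a median of 0.998, beside 0.965 over 2215 such sites.

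**Figure D3:**
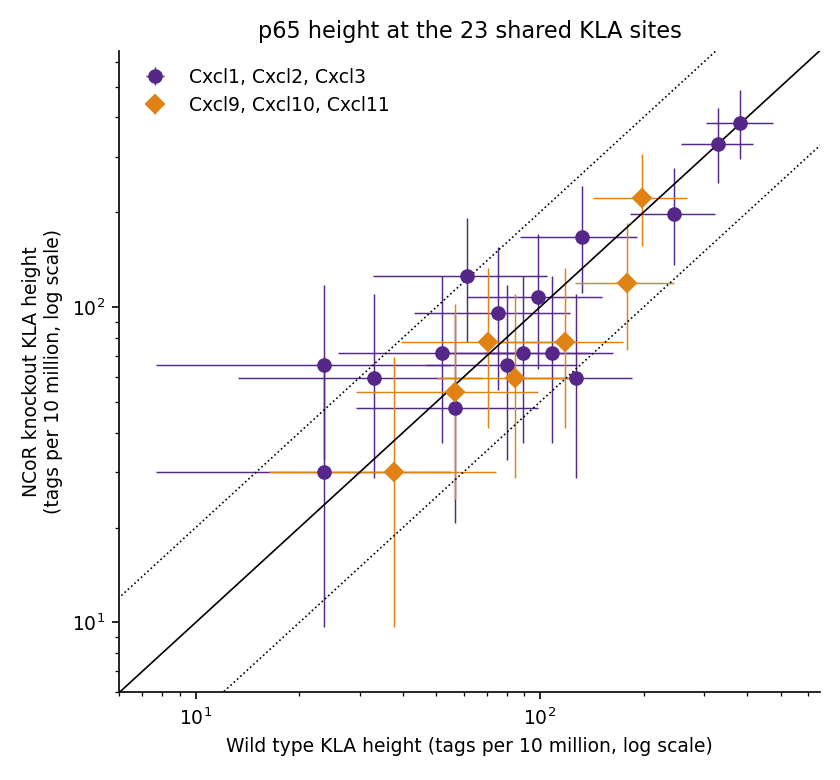
Knockout against wild type KLA height at the 23 shared member sites, both axes logarithmic, in tags per 10000000. Bars are 95% Poisson intervals, the solid line marks equal heights, and dotted lines mark ratios of 2 and 0.5. The 5 tallest wild type sites lie within a ratio of 0.667 to 1.12.

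A ratio of 2 or more was seen at 2 of the 23 sites, against 6.28% of all shared sites, and a ratio of 0.5 or less at 1, against 2.43%. The former are the site from 91207540, with 23.6 in wild type and 65.7 in knockout cells (ratio 2.78, exact conditional interval 0.893 to 10.2), and the site from 91319461 (2.05, 0.978 to 4.45). The latter is the site from 91310624 (0.470, 0.203 to 1.00), where the LXRβ peak also lies. The interval of each of the 23 ratios includes 1, the last by a margin below its printed digits. Over all shared sites 3.09% have an interval that leaves out 1. At the tallest site the ratio was 1.00 (0.710 to 1.41), which leaves room for a difference of up to that size in either direction. In the Cxcl9 to Cxcl11 window the lowest ratios were 0.659 (0.310 to 1.34) at the site from 92782729 and 0.667 (0.368 to 1.18) at the site from 92803871.

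**Figure D4:**
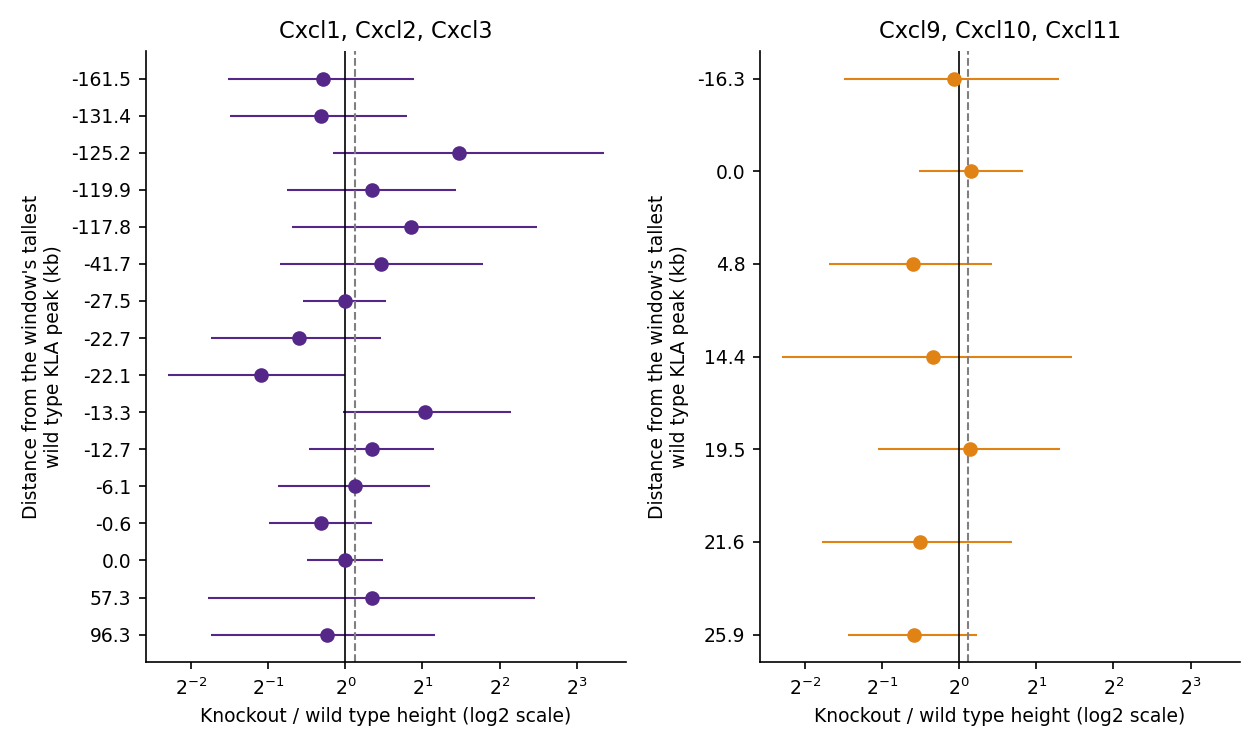
Knockout to wild type height ratio (horizontal axis, log2 scale) at each shared site of both windows, ordered by position and labelled by the distance in kb from the window's tallest wild type KLA peak. Bars are exact 95% conditional intervals of the tag counts, the solid line marks 1 and the dashed line the median over all shared sites, 1.09. Every bar includes 1, and in the Cxcl9 to Cxcl11 window 5 of 7 points lie below it.

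Sites listed in 1 genotype alone were low or had a neighbour. In the Cxcl1 to Cxcl3 window the tallest listed after KLA in wild type cells alone lay from 91327864 to 91327996 with a height of 80.2. A knockout peak of 89.6, from 91327704 to 91327848, was centred 154 bp away and is in turn the tallest listed in knockout cells alone. The wild type peak passed the authors' local filter narrowly, at 4.01-fold over the surrounding region where 4 was required. The next in wild type cells was 42.4, from 91167828 to 91167960, with no knockout KLA peak within 3329 bp. The next in knockout cells was 35.9, from 91248836 to 91248980, with no wild type KLA peak within 33838 bp. A further pair of low peaks, 33.0 from 91359696 in wild type and 29.9 from 91359848 in knockout cells, was centred 158 bp apart. In the Cxcl9 to Cxcl11 window the single peak listed in wild type cells alone, from 92798205 to 92798337, was 42.4. The tallest listed in knockout cells alone, from 92778752 to 92778896 and from 92804488 to 92804632, were 47.8 each, on 8 tags. Their nearest wild type peaks were the tallest 2 sites, 784 and 623 bp away. In all, 5 sites were listed in wild type KLA cells alone and 6 in knockout KLA cells alone. Peaks without a partner are common: only 54.0% of all wild type and 71.7% of all knockout KLA peaks overlapped the other list. Among members 82.1% and 79.3% did. Absence from a list means fewer tags than the threshold of 5, removal by a filter, or a listed peak closer than the minimum distance. Of the KLA lists only the knockout list was called with an input, so the filters were not the same in both genotypes.

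Of 2743 LXRβ peaks in GW3965-treated RAW264.7 cells, 1 lay in each window. That is 0.357 per 100 kb in the Cxcl1 to Cxcl3 window and 0.769 in the other, beside 0.104 in the genome, and 1 peak gives wide Poisson intervals, 0.00904 to 1.99 and 0.0195 to 4.29. In the Cxcl1 to Cxcl3 window the peak from 91310702 to 91310822 had a height of 16.4 (9.71 to 25.9), rank 392 of its list, and overlapped the p65 KLA peaks of 127.3 in wild type and 59.8 in knockout cells. Their centres were 72 and 36 bp from its own. In the Cxcl9 to Cxcl11 window the peak from 92739022 to 92739142 had a height of 10.0 (5.00 to 17.9), near the list median of 10.9, and its nearest p65 KLA peaks lay 18125 bp (knockout) and 22620 bp (wild type) away. So 1 of 2 overlapped p65 in each genotype, where 42.4% and 34.8% of all LXRβ peaks did. Both had 1.4 scaled input tags. LXRβ and p65 were mapped in different cells, and an overlap here is one of position.

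Peak shape was described by the focus ratio and the fold over local signal. The focus ratio, the fraction of tags on the side of the centre that their strand predicts, had a median of 0.769 over the wild type and over the knockout KLA members, beside 0.758 and 0.760 over the lists. The median fold over the surrounding 10000 bp was 21.5 in wild type and 24.0 in knockout members, beside 26.7 and 28.0 over the lists. By window it was 22.1 (wild type) and 31.4 (knockout) at Cxcl1 to Cxcl3, and lower at Cxcl9 to Cxcl11, 18.3 and 15.9. Input was low, at 0.1 to 0.5 scaled tags at every knockout KLA member, while wild type KLA members have no input value.

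Library depth set the precision of these values. Total tags were 777228 and 786121 in the untreated wild type and knockout libraries, 2120392 and 1673506 after KLA, and 11758634 for LXRβ. After KLA 1 tag was worth 4.72 in wild type and 5.98 in knockout cells. The knockout height of 59.8 at the site that overlaps the RAW264.7 LXRβ peak thus rests on 10 tags. The tallest member rested on 81 (wild type) and 64 (knockout) tags.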

How the data were processed

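Peak lists of 5 of the 23 samples were used, and the other 18 (GRO-seq, histone ChIP-seq and inputs) were not analysed here. The submitters' processing notes name Bowtie 0.12.7, HOMER and build mm9. Per the file headers, the authors called peaks by findPeaks (factor style) on each library separately, counting no more than 1 tag per bp, at an FDR of 0.001 and 4-fold over the surrounding 10000 bp. Only the wild type KLA header names no input library, and the other p65 lists share an input from wild type cells. The height is the deposited signal, the normalized tag count. The deposited findPeaks score, the authors' ratio of fold over local signal, the deposited focus fraction and the deposited scaled input tags (a signal) were used to describe peaks.

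Tags were recomputed from heights. Lists were compared by overlap of 1 bp or more, and the overlapping peak closest by centre entered the ratio (pandas 2.3.3 and numpy 2.4.6 under Python 3.11.15). Exact 95% intervals came from scipy 1.17.1. The overlap and interval code was tested on simulated data. Upstream stretches are the 250 bases before the start in RefSeq promoters. Alternatives were other overlap rules, windows, height minima, input filters and scalings. Sites described in full are the 5 tallest wild type KLA sites per window, all with an untreated or LXRβ peak, and the tallest 2 per window in 1 genotype alone. Members, lists and motifs were chosen with earlier results of these data known.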

Additional observations from a re-analysis of the deposited data

Results flagged for a closer look

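At the site from 91171151 of the Cxcl1 to Cxcl3 window the listed knockout height was lower after KLA than before. In wild type cells a peak was listed only after KLA, so the sign of a change cannot be given. Neither direction is established. In knockout cells the KLA minus untreated height was -48.8, from 114.5 untreated to 65.7 after KLA, on 9 and 11 tags. These knockout peaks are centred 82 bp apart and fail the reciprocal overlap of 50%. In wild type cells no untreated peak was listed, where the lowest listed height is 64.3, and the height after KLA was 80.2, so a wild type change has no measured starting value. The difference between the genotypes was not tested, each group is 1 library, and the knockout intervals, 52.4 to 217 and 32.8 to 118, overlap.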

How the results depend on the processing

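Of 65 recomputed summary values 57 stayed within 1.5 times the reported count or within its interval, and 8 moved. Some of the 57 were fixed in advance. Filters, narrower windows and stricter overlap leave a count of 0 at 0, and every knockout KLA peak reaches its own list's lowest height. The 57 is therefore no measure of robustness. With 10 or more tags required, knockout KLA peaks of the Cxcl9 to Cxcl11 window numbered 5 in place of 10, and untreated knockout peaks 0 in place of 3. Leaving out peaks with 1 or more scaled input tags left 0 of the 2 LXRβ peaks. With a reciprocal overlap of 50% the share found in the other genotype was 57.1% of wild type and 55.2% of knockout members, beside 44.4% and 59.0% of the whole lists, so the knockout members then lay below their list. That rule also left 0 knockout KLA members at an untreated knockout peak, in place of 1, and 0 LXRβ peaks at a wild type p65 peak, in place of 1. Centres at most 500 bp apart gave 2 knockout KLA members at an untreated knockout peak. All 69 recomputed ratios at single sites stayed within their counting intervals. These scalings change a ratio little beside the width of its interval, so the outcome was nearly fixed and says little about robustness. At the tallest site, for example, division by width gave 0.918, where the interval is 0.710 to 1.41. No paired analysis was possible because each group is 1 library, and for the same reason no library could be left out. Untreated depth limits listing to heights of 63.6 or more.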

Other observations

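In 2 lists the deposited height did not follow the header's figures. The LXRβ heights correspond to 0.910 per tag of the findPeaks score, where the header's total tags give 0.850, so the LXRβ intervals use the score as tags. In the wild type KLA list 990 peaks have a height of fewer than 5 tags although the tag threshold is 5. The score exceeds the tags at 17 of the 28 wild type KLA members and at 0 of 29 knockout KLA members. Over the whole lists the score differs from the tags at 13561 of 30021 wild type and 0 of 22585 knockout KLA peaks. The contrast therefore belongs to the lists and is not particular to the members.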
